A study of Homo sapiens with 15 samples.

Results

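Small nucleolar RNA (snoRNA) host genes were followed in IGROV-CP20 cells, a cisplatin-resistant human ovarian cancer line, after cisplatin alone and after cisplatin combined with each of 3 approved drugs. The genes were chosen by name from GENCODE 29: every gene whose symbol is SNHG followed by a number, plus GAS5, ZFAS1, DANCR and EPB41L4A-AS1. This gave 29 gene records, of which 28 have an identifier among the 47634 identifiers measured and 21 had enough reads to be tested, out of 11113 genes tested in all. The host genes without enough reads were SNHG18, SNHG21, SNHG22, SNHG26, SNHG27 and both records of SNHG28, with 0 to 40 reads over all libraries, and counts of SNHG4 were not analysed here. The set was picked because SNHG19 was lower with Tranilast than with cisplatin alone. The contrast of those groups is therefore given as a description, without a test, and so is SNHG19 in any contrast that uses the cisplatin or the Tranilast libraries.

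snoRNAs are short nuclear RNAs that guide the chemical modification of ribosomal RNA. Box C/D snoRNAs guide methylation and box H/ACA snoRNAs guide pseudouridylation. Most human snoRNAs are cut out of the introns of a host transcript, and in the host genes described here what remains after splicing is a noncoding RNA. Several of these spliced RNAs begin with a terminal oligopyrimidine tract, the run of C and T bases after the start site that is best known from ribosomal protein mRNAs. Such RNAs are known to be bound by ribosomes and removed by nonsense-mediated decay, so their level can be higher when translation stops, and GAS5 was named for accumulating in growth-arrested cells. QuantSeq reads the 3′ end of polyadenylated RNA, so the counts describe the spliced host RNA and not the snoRNAs.

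There were 5 groups of 3 libraries, described as biological replicates, all of the same line. The cells were untreated, or received 50 µM cisplatin for 24 h, or were first kept for 24 h with 10 µM Tranilast (an anti-allergic drug), Telmisartan (an angiotensin receptor blocker) or Amphotericin B (an antifungal) and then given cisplatin for 24 h. There was no group with a drug but no cisplatin, and every cell descends from 1 resistant line, so these are values of 1 cell model. The comparisons share libraries, so they are not independent of each other. Libraries held between 1510620 and 3517041 counted reads. The lowest 3 totals, up to 1872639, were those of the Amphotericin B group. Cisplatin replicate 1 and Telmisartan replicate 3 stood apart from the other libraries of their groups: their chi-square per degree of freedom against those libraries was 27.6 to 46.8, and that of all other pairs was 2.35 to 8.39. Of 7 epithelial markers, EPCAM, KRT8 and KRT18 were above the cutoff of the filter on low counts in all 15 libraries. CDH1 was above it in 11 libraries, with 0 of the 3 untreated ones, and KRT19 in 4. KRT7 and PAX8 had no read in the 12 libraries outside the Amphotericin B group. The summed level of the 7 was 147 to 253 CPM (counts scaled to a common library size). That of 5 fibroblast markers was 18.8 to 51.4 CPM, with COL1A1 above the cutoff in all 15 libraries. Of 3 endothelial markers with an identifier, VWF and CDH5 had no read in any library. The third, KDR, had reads in untreated cells only, at 0.288 CPM at most. Among 5 leukocyte markers CD3E was at 0 throughout. Their summed level was 65.6 to 79.2 CPM in untreated cells and 4.77 to 22.8 CPM in all others. Most of it was PTPRC, at 70.0 ± 5.45 CPM (SD, n = 3) in untreated cells and at 7.05 ± 7.01 CPM with cisplatin. The part of these cells or transcripts in the results was not tested. In bulk libraries, fewer cells of a kind and less RNA per cell cannot be told apart.

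The share of reads from mitochondrial ribosomal RNA also moved with the treatments. It was 1.79% to 2.20% in untreated cells and 2.10% to 2.53% with Tranilast. It was 13.7%, 5.61% and 3.41% in cisplatin replicates 1 to 3, 10.8%, 12.9% and 3.61% in those of Telmisartan, and 12.3% to 14.8% with Amphotericin B. All libraries with cisplatin alone, Telmisartan or Amphotericin B had a higher share than all untreated ones, so the share and these treatments cannot be fully told apart. These shares are given again beside the host gene levels, and their part in the results was not tested.

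The start sites of the host genes are shown first, because the pyrimidine tract at the first base is the feature that links this class to ribosomal protein genes. RefSeq promoters on GRCh38.p14 were available for 24 of the gene symbols. A start was counted when the first base was C and the next 4 bases were each C or T, read on the strand of the gene. This held for 6 of the 24 host genes (25%), for 43 of 68 cytosolic ribosomal protein genes (63.2%) and for 1429 of 35116 promoters in all (4.07%). The letters TATAA lay within 40 to 20 bases before the start in 6 of the 24 host genes (25%) and in 3.77% of all promoters. Both features together were found in SNHG19, SNHG5, ZFAS1 and SNHG12, which is 16.7% of the 24, against 8.82% of the ribosomal protein genes and 0.0883% of all promoters. The windows below run from 40 bases before the start to 50 bases from it, with TATAA and the pyrimidine run in capitals. DANCR and GAS5 are shown as host genes whose RefSeq start lacks both. Among the genes shown, only SNHG19 has the same start in RefSeq and at the edge of its GENCODE record. In DANCR the bases after the start base, cccttg, would meet the pyrimidine rule if the start were the next base. The presence or absence of these letters therefore concerns these windows only.
SNHG19 (chr16:2155309-2155398, minus strand): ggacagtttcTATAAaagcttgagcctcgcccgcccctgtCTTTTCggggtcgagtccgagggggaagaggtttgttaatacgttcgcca
SNHG5 (chr6:85678684-85678773, minus strand): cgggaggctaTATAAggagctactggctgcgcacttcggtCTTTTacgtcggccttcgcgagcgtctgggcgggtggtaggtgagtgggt
ZFAS1 (chr20:49278602-49278691, plus strand): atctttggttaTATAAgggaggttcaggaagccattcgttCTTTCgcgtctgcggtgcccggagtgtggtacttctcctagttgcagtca
SNHG12 (chr1:28581824-28581913, minus strand): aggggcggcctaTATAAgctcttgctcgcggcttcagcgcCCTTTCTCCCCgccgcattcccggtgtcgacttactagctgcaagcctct
DANCR (chr4:52712354-52712443, plus strand): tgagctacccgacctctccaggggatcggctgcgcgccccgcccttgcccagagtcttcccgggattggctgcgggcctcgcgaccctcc
GAS5 (chr1:173868996-173869085, minus strand): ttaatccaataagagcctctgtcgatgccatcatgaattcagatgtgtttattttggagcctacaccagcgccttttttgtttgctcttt

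SNHG19 lies on chromosome 16 at 2154797 to 2155358 (GRCh38, minus strand, ENSG00000260260). It is annotated as a long intergenic noncoding RNA with 2 exons that add up to 342 bases. Its intron holds SNORD60, a box C/D snoRNA that guides methylation of the large ribosomal RNA. No exon of SNHG19 overlaps an exon of another annotated gene. The end of its only transcript, from which oligo-dT primed reads arise, and the snoRNA are shown because they separate what was counted from what was not. The AATAAA signal for polyadenylation stands in capitals in the first line, 22 bases before the annotated end, and box C and box D, the parts bound by the snoRNA proteins, in the second.
SNHG19-201, last 120 bases (chr16:2154797-2154916, minus strand): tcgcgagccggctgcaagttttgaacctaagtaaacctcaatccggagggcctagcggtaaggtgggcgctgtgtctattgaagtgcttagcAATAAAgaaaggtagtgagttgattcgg
SNORD60-201 (chr16:2155023-2155105, minus strand): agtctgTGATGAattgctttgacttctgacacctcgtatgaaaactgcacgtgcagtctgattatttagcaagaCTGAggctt

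Levels are given in CPM, scaled by the trimmed mean of M values (TMM). In untreated replicates 1 to 3, SNHG19 stood at 131, 158 and 176 CPM. With cisplatin it stood at 583, 559 and 331 CPM, and with Tranilast at 134, 130 and 123 CPM. The Telmisartan libraries held 409, 447 and 212 CPM and the Amphotericin B libraries 575, 492 and 504 CPM. All libraries with cisplatin alone, Telmisartan or Amphotericin B lay above all untreated and all Tranilast libraries. Cisplatin replicate 3 and Telmisartan replicate 3 were the lowest of their groups, and both also had the lowest mitochondrial ribosomal RNA share of their groups. The Tranilast and untreated ranges overlapped, with means of 129 ± 5.43 and 155 ± 22.6 CPM (SD, n = 3).

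The contrasts that did not enter the choice of SNHG19 are those of Telmisartan and of Amphotericin B with untreated cells. There SNHG19 rose by 1.19 ± 0.25 on the log2 scale with Telmisartan (SE, adjusted p = 0.00218, edgeR quasi-likelihood test) and by 1.75 ± 0.26 with Amphotericin B (adjusted p = 0.00010, edgeR). It was higher in 3 of 3 libraries in both, where the libraries of 44.6% and 58.7% of all genes did not overlap. These calls held under every alternative tried, with values from 0.54 to 1.46 and from 0.78 to 1.93. Described without a test, SNHG19 was 3.16-fold higher with cisplatin than in untreated cells (log2 fold change 1.66 ± 0.25) and 3.80-fold lower with Tranilast than with cisplatin (log2 fold change -1.93 ± 0.26). Against cisplatin alone, its log2 fold change was -0.47 ± 0.25 with Telmisartan and 0.09 ± 0.25 with Amphotericin B.

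**Figure D1:**
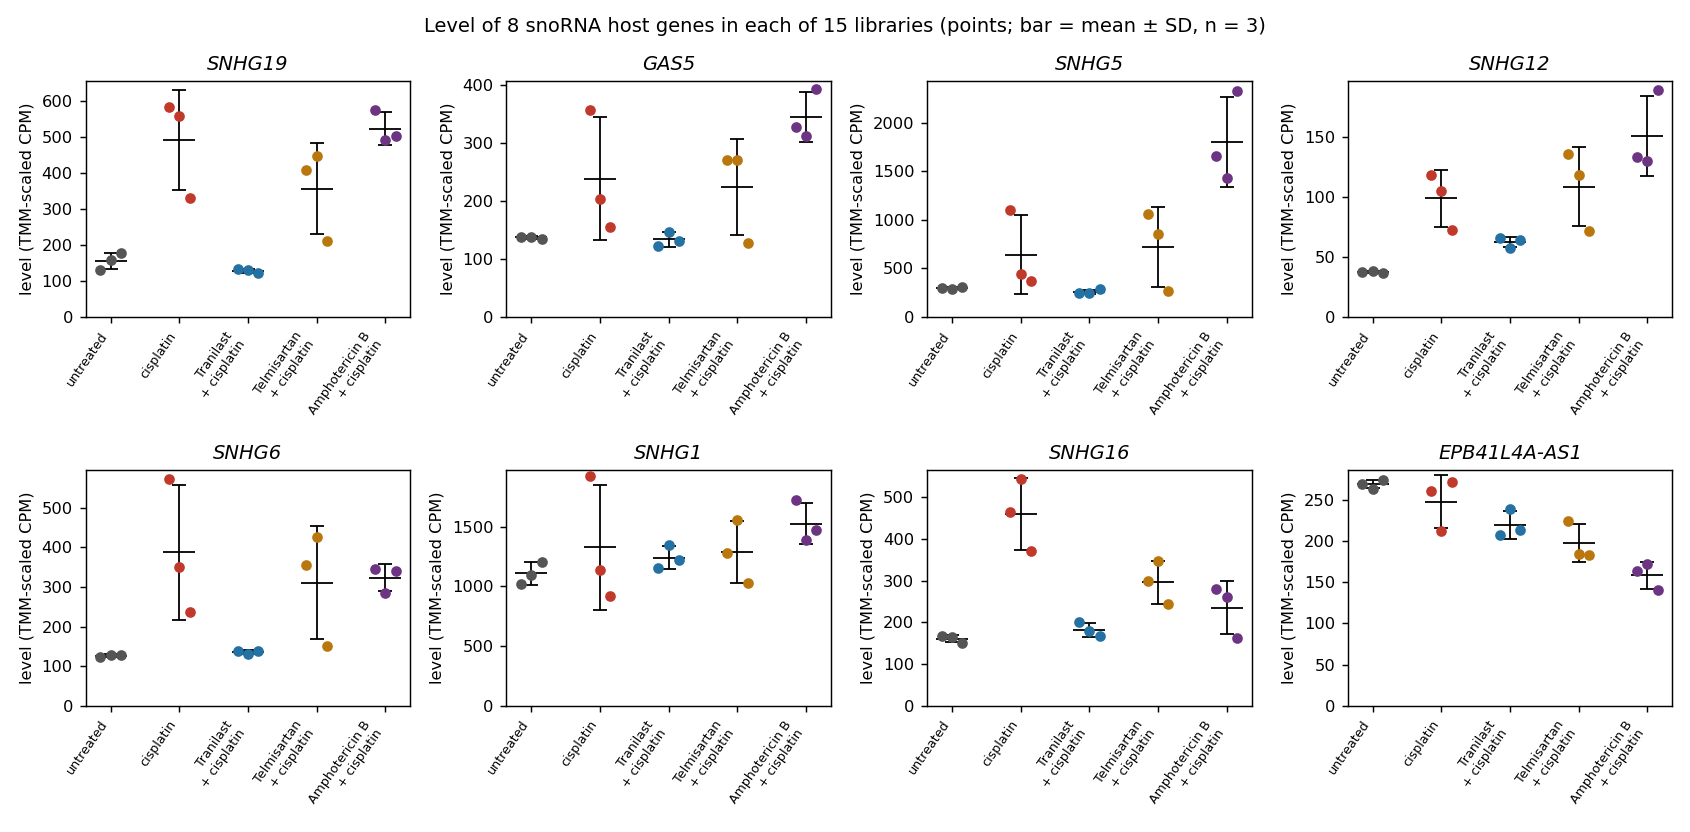
Level of 8 snoRNA host genes (vertical axis, TMM-scaled CPM) in the 15 libraries, grouped by condition along the horizontal axis, where points are replicates 1 to 3 from left to right and bars are mean ± SD (n = 3). SNHG19 stands at 331 CPM or more with cisplatin and at 134 CPM or less with Tranilast, whereas EPB41L4A-AS1 goes down to 140 to 172 CPM with Amphotericin B.

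GAS5, on chromosome 1 at 173863900 to 173868882 (GRCh38, minus strand, ENSG00000234741), is known as a host of box C/D snoRNAs and as a decoy for the glucocorticoid receptor. Untreated libraries held 138, 138 and 135 CPM of GAS5. Cisplatin libraries held 357, 203 and 154 CPM, Tranilast libraries 123, 147 and 131 CPM, Telmisartan libraries 270, 271 and 128 CPM and Amphotericin B libraries 326, 312 and 393 CPM. The cisplatin group lay above the untreated group without overlap, and Telmisartan replicate 3 lay below all 3 untreated libraries. Between cisplatin and untreated cells the libraries of 53.5% of all genes did not overlap. GAS5 rose with cisplatin by 0.79 ± 0.28 on the log2 scale (adjusted p = 0.0279, edgeR). Without cisplatin replicate 1 the value was 0.36 (adjusted p = 0.237, edgeR), and the call ended. It also ended without untreated replicate 1, 2 or 3, where the value stayed at 0.79, 0.79 or 0.77. The adjusted p was then 0.0692, 0.0705 or 0.0770 (edgeR). Over all genes, 1803, 1778 or 1667 rose in those fits, beside 2345 with all libraries. With Amphotericin B GAS5 rose over untreated cells by 1.33 ± 0.28 (adjusted p = 0.00145). With the mitochondrial ribosomal RNA share as a covariate both calls ended, at 0.053 with cisplatin and -0.040 with Amphotericin B. With Telmisartan its log2 fold change was 0.70 ± 0.28 (adjusted p = 0.0672), and it was above all untreated libraries in 2 of 3. Set beside cisplatin alone, the log2 fold change of GAS5 was -0.09 ± 0.28 with Telmisartan and 0.53 ± 0.28 with Amphotericin B, and neither passed the threshold (adjusted p = 0.945 and 0.198).

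After cisplatin alone, 13 of the 20 tested host genes other than SNHG19 rose over untreated cells and 0 fell (edgeR, adjusted p under 0.05). Among all 11113 genes, 21.1% rose and 23.6% fell in this comparison. The median log2 fold change of these 20 host genes was 1.10, and that of all genes was -0.01. SNHG10 and SNHG20 reached the CPM cutoff of the filter on low counts (4.26) in 1 of 3 untreated libraries each, so they were tested through the groups where they are high, and their calls over untreated cells are not independent of that filter. Without these and SNHG19, 11 of 18 rose. By kind of snoRNA, and again without SNHG19, 4 of 6 hosts of box C/D snoRNAs, 4 of 9 hosts of box H/ACA snoRNAs and 2 of 2 hosts of both kinds rose, with median log2 fold changes of 1.03, 1.10 and 1.35. The other tested hosts are SNHG10 and SNHG20, which carry a Cajal body RNA, and GAS5, whose snoRNAs are not listed in GENCODE 29.

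DANCR, SNHG6 and SNHG16 had the largest increases among the host genes past the threshold, apart from SNHG19 and SNHG10. SNHG10, the host of SCARNA13, is given as a description. It was at 2.87, 6.04 and 2.55 CPM untreated and at 23.0, 18.6 and 8.74 CPM with cisplatin (log2 fold change 2.10 ± 0.46), so that all cisplatin libraries lay above all untreated ones. Several host genes share exonic bases with another gene that has over 50 reads of its own, so reads at these genes may be split or mixed. On the same strand these are SNHG20 (460 bases with SEC14L1), SNHG3 (242 with RCC1) and SNHG14 (141 with SNRPN). On the opposite strand they are EPB41L4A-AS1 (1659 with EPB41L4A), SNHG7 (1094 with FAM69B), SNHG10 (391 with GLRX5), ZFAS1 (249 with ZNFX1), SNHG14 (198 with UBE3A) and SNHG12 (8 with TRNAU1AP).

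DANCR, the host of SNORA26, known for holding back differentiation of progenitor cells, went from 16.3, 17.3 and 20.1 CPM to 124, 54.9 and 33.8 CPM (log2 fold change 1.97 ± 0.46, adjusted p = 0.00229). Its groups did not overlap, as in 53.5% of all genes, and cisplatin replicate 1 held more than the other 2 cisplatin libraries together. SNHG6, the host of SNORD87, went from 123, 128 and 129 CPM to 574, 352 and 237 CPM (log2 fold change 1.61 ± 0.31, adjusted p = 0.00058), again without overlap.

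The other host genes that rose with cisplatin were SNHG16 (the host of SNORD1A to SNORD1C), SNHG12, SNHG25, SNHG3, SNHG7, SNHG5, SNHG14 and SNHG11, with log2 fold changes from 0.93 (SNHG11) to 1.52 (SNHG16). SNHG20, with means of 3.54 CPM untreated and 10.3 CPM with cisplatin, is given as a description, like SNHG10. SNHG16 was at 166, 165 and 150 CPM untreated and 465, 543 and 370 CPM with cisplatin (1.52 ± 0.21, adjusted p = 3.82e-05). SNHG25, the host of SNORD104 and SNORA50C, was at 901 ± 22.9 CPM untreated and 2247 ± 739 CPM with cisplatin (SD, n = 3). Its short spliced transcript is shown because, like that of SNHG19, it opens with C and pyrimidines and ends just behind an AATAAA signal (capitals).
SNHG25-201 (spliced, GRCh38 chromosome 17, plus strand): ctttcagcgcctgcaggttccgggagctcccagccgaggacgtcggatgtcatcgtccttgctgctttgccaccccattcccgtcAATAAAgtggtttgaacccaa

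Not past the threshold with cisplatin were SNHG1, SNHG8, SNHG9, SNHG15, SNHG17, EPB41L4A-AS1 and ZFAS1. SNHG9 and SNHG15 had log2 fold changes of 1.12 ± 0.46 and 1.10 ± 0.47 (adjusted p = 0.0552 and 0.0660), and in both the untreated and cisplatin libraries overlapped. SNHG1, which hosts many box C/D snoRNAs, was at 1021, 1095 and 1207 CPM untreated and at 1920, 1138 and 917 CPM with cisplatin, so that cisplatin libraries lay on either side of the untreated ones. ZFAS1, the host of the SNORD12 family, differed by 0.10 ± 0.27 (approximate 95% interval -0.42 to 0.62) although its RefSeq start carries both features shown above. SNHG12, SNHG5 and SNHG19, the others with both, had log2 fold changes of 1.39, 1.10 and 1.66. The interval of EPB41L4A-AS1 was -0.43 to 0.20 and that of SNHG17 was -0.96 to 0.01.

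The size of the change differed between the cisplatin libraries along with mitochondrial ribosomal RNA. Relative to the untreated mean, the median log2 level of the 21 host genes was 1.53 in the cisplatin library with a share of 13.7%, 1.19 in that with 5.61% and 0.45 in that with 3.41%. With SNHG19 counted among them, taking the share into the model as a covariate left 10 host genes higher and 2 lower, with a median of 0.65. Leaving out cisplatin replicate 1 and Telmisartan replicate 3 together gave 15 higher and 2 lower. Scaling by library size only gave 9 higher and 2 lower, while the median of all genes moved to -0.36. Over all genes, 2676 were higher and 2721 lower of 11113 with the covariate. They were 3048 and 3195 of 11260 without those libraries, and 1019 and 3351 of 11113 with library size only. SNHG16, SNHG12, DANCR, SNHG7, SNHG3, SNHG6 and SNHG25 were called under all alternatives. The covariate ended the calls of SNHG5, SNHG11, SNHG20 and GAS5. Every cisplatin library had a higher share than every untreated one, so a call that ended does not separate the share from the treatment. Leaving out 1 library ended the calls of SNHG5 and GAS5 (cisplatin replicate 1 or any untreated one), SNHG11 (untreated replicate 2 or 3 or cisplatin replicate 2) and SNHG20 (untreated replicate 2 or cisplatin replicate 1). Without cisplatin replicate 1, SNHG5 was at 0.43 and SNHG20 at 1.09. Without cisplatin replicate 2, SNHG11 was at 0.62.

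**Figure D2:**
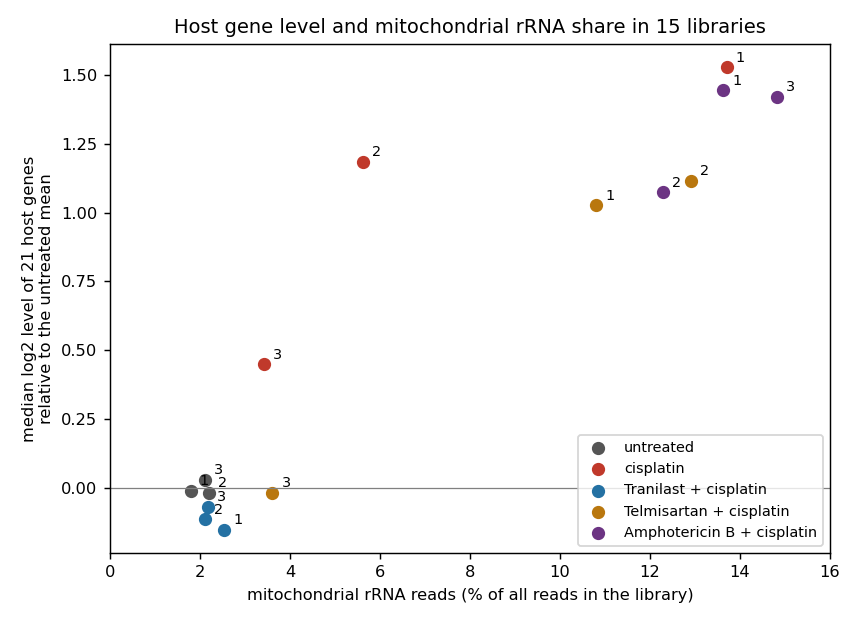
Median log2 level of the 21 tested host genes relative to the untreated mean (vertical axis) against the share of reads from mitochondrial ribosomal RNA in percent (horizontal axis), with 1 point per library, coloured by condition and numbered by replicate. The 7 libraries above 5% have medians from 1.03 to 1.53, and the other 8 have medians from -0.15 to 0.45.

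With Tranilast before cisplatin, no host gene was called different from untreated cells when all 15 libraries were fitted together. Since the Tranilast libraries entered the choice of genes, their values are given as a description. Against untreated cells 0 of 21 rose and 0 fell (edgeR), where 2.44% of all genes rose and 5.66% fell. At an unadjusted p under 0.05 there were 2, SNHG12 and SNHG14, beside 21.4% of all genes. This count depended on the fit. DESeq2, RLE factors, the replicate block and a CPM above 1 in 3 libraries also called 0, whereas the 6 libraries alone called 2 higher (SNHG12 and SNHG14) and 5 lower (SNHG8, SNHG9, SNHG17, ZFAS1 and EPB41L4A-AS1). The mitochondrial ribosomal RNA share as a covariate, and leaving out the libraries that stood apart, each called 2 higher (SNHG12 and SNHG14) and 2 lower (SNHG8 and SNHG9). Over all genes, the 6 libraries alone called 1869 higher and 2119 lower of 10965. The covariate called 998 and 1469 of 11113, and leaving out the libraries apart called 1082 and 1558 of 11260. The median log2 fold change of the host genes with all 15 libraries was -0.06. The Tranilast libraries had mitochondrial ribosomal RNA shares of 2.10% to 2.53%, close to the untreated ones, and their medians relative to the untreated mean were -0.15, -0.11 and -0.07. Some genes were alike in these libraries: SNHG6 stood at 138, 131 and 139 CPM, SNHG5 at 252, 247 and 284 CPM and SNHG14 at 147, 145 and 146 CPM. Others spread more, such as SNHG20 at 2.98, 8.18 and 3.39 CPM and ZFAS1 at 105, 106 and 144 CPM.

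SNHG12 and SNHG14 differed most from untreated cells in the upward direction. SNHG12, which hosts SNORD99 and box H/ACA snoRNAs, was at 37.6, 38.6 and 36.4 CPM untreated and at 65.9, 57.5 and 63.9 CPM with Tranilast (log2 fold change 0.73 ± 0.24). SNHG14, the long imprinted transcript that hosts the SNORD116 and SNORD115 clusters, was at 87.4, 92.7 and 113 CPM untreated (log2 fold change 0.58 ± 0.23). Both were above all untreated libraries in 3 of 3, and neither passed the threshold with all 15 libraries. Between Tranilast and untreated cells the libraries of 46.2% of all genes did not overlap. SNHG9 lay below untreated in 3 of 3 libraries, at 24.9, 31.6 and 25.3 CPM against 54.8, 48.6 and 45.6 CPM (log2 fold change -0.86 ± 0.47).

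Tranilast against cisplatin alone is the contrast from which SNHG19 was chosen, and its values are a description. Of the 20 host genes other than SNHG19, 11 had an edgeR adjusted p under 0.05 on the lower side and 0 on the higher side, beside 11.6% and 10.5% of all genes. Their median log2 fold change was -0.98. Nothing is read from these counts, since the genes were chosen on this contrast. The log2 fold changes ran from -2.45 (SNHG10), -2.35 (DANCR) and -1.98 (SNHG9) to 0.03 (SNHG17). SNHG10 stood at 2.98, 3.27 and 2.71 CPM with Tranilast and DANCR at 16.0, 12.5 and 13.1 CPM, all below every cisplatin library. SNHG9 stood at 185, 86.3 and 54.8 CPM with cisplatin, above all 3 Tranilast libraries. In this contrast the libraries of 40.3% of all genes did not overlap. SNHG1, at 1154, 1345 and 1221 CPM with Tranilast, lay within the range of its cisplatin libraries (log2 fold change -0.10). The contrast with Amphotericin B also uses the Tranilast libraries and is described likewise. Without SNHG19, 13 of 20 host genes were past the threshold as lower and 1 as higher, beside 16.4% and 19.7% of all genes, and the median was -1.26. With the mitochondrial ribosomal RNA share as a covariate none of these calls was left, and over all 11113 genes 75 were higher and 11 lower. In the fit without the covariate SNHG9 had the largest difference, at 27.3 ± 3.77 CPM with Tranilast and 341 ± 70.4 CPM with Amphotericin B (log2 fold change -3.64 ± 0.50). The next largest were DANCR (-2.84 ± 0.47) and SNHG5 (-2.79 ± 0.43), and in both all 3 Tranilast libraries lay below all 3 Amphotericin B libraries. Between these groups the libraries of 55.2% of all genes did not overlap. EPB41L4A-AS1 was the gene on the higher side, at 207, 239 and 214 CPM with Tranilast (log2 fold change 0.47 ± 0.16), and leaving out any Tranilast library, or Amphotericin B replicate 1 or 3, ended that call.

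**Figure D3:**
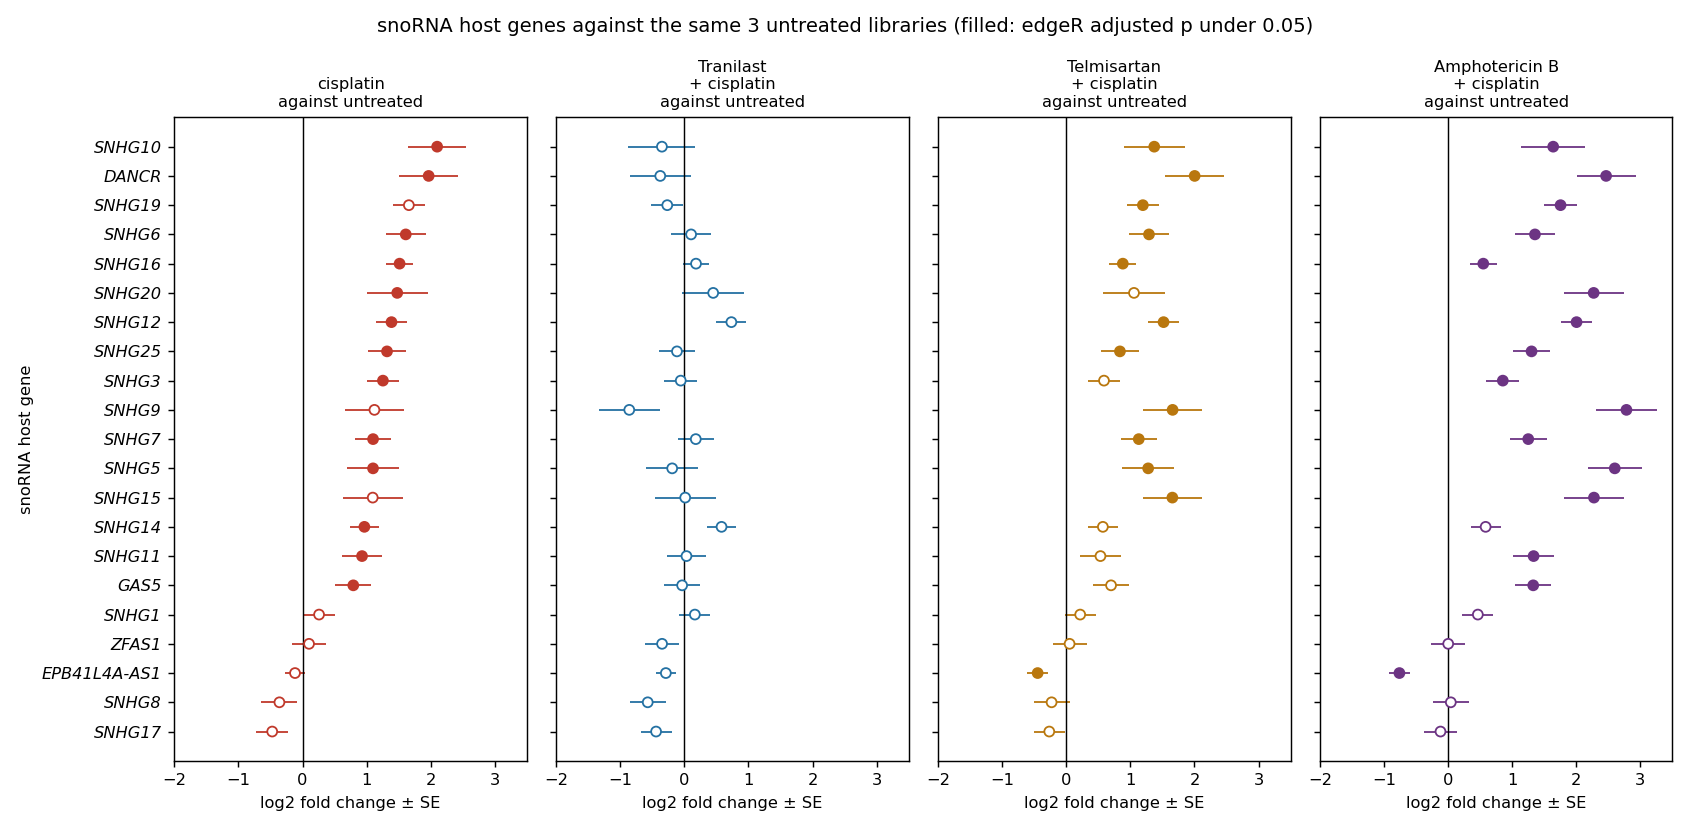
Log2 fold change ± SE (horizontal axis) of the 21 tested host genes (vertical axis) in each treatment against the same 3 untreated libraries, where filled points have an edgeR adjusted p under 0.05. The panels share their controls, and SNHG19 is plotted as a description, with an open point, in the cisplatin and Tranilast panels. With Tranilast no point is filled, and with Amphotericin B 16 are. Filled points of SNHG10 and SNHG20 are a description, since their calls are not independent of the filter on low counts.

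Telmisartan before cisplatin gave 11 host genes higher and 1 lower than in untreated cells, beside 12.8% and 15.8% of all genes, and the median log2 fold change was 0.88. DANCR, SNHG9 and SNHG15 had the largest increases. DANCR stood at 81.1, 115 and 23.4 CPM with Telmisartan (2.003 ± 0.46, adjusted p = 0.00367), above all 3 untreated libraries. Between these groups the libraries of 44.6% of all genes did not overlap. SNHG9, the host of SNORA78, stood at 228, 208 and 39.6 CPM (1.66 ± 0.46, adjusted p = 0.0127), and SNHG15, the host of SNORA9, at 60.2, 57.4 and 12.9 CPM beside 10.5, 13.2 and 16.3 CPM untreated (1.66 ± 0.46, adjusted p = 0.0128). In both, replicate 3 fell among or below the untreated libraries. SNHG12, SNHG6, SNHG5, SNHG19, SNHG7, SNHG16 and SNHG25 also rose, by 0.84 to 1.52. SNHG10, counted among the 11, is given as a description, as with cisplatin. Leaving out SNHG10 and SNHG20, which reached the cutoff in 1 untreated library each, 10 of 19 rose, with a median log2 fold change of 0.84.

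EPB41L4A-AS1, the host of SNORA13, was the 1 host gene that fell. It was at 270, 264 and 274 CPM untreated and at 224, 184 and 184 CPM with Telmisartan (-0.45 ± 0.16, adjusted p = 0.0452), and the groups did not overlap. Leaving out any library other than Telmisartan replicate 1 ended this call (adjusted p from 0.0731 to 0.139). The number of host genes that rose was 7 without untreated replicate 1, untreated replicate 3 or Telmisartan replicate 1, and 6 without Telmisartan replicate 2. In these fits 779 to 940 of all 11299 to 11429 genes tested rose.

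Relative to the untreated mean, the host gene median was 1.03 and 1.12 in the Telmisartan libraries with shares of 10.8% and 12.9%, and -0.02 in replicate 3, where the share was 3.61%. With the share as a covariate, 3 host genes were higher and 3 lower, and the median was 0.09. Over all 11113 genes, 1869 were then higher and 1973 lower, shares above those of the host genes. The calls of DANCR (0.38), SNHG9 (-0.076) and SNHG15 (0.0082) ended under the covariate. Every Telmisartan library had a higher share than every untreated one, so the share and the treatment were not fully separated. Without Telmisartan replicate 3 and cisplatin replicate 1, 17 host genes were higher and 1 lower, beside 2342 and 3003 of 11260 genes. Only SNHG16, SNHG12 and SNHG19 were called under all alternatives tried.

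Against cisplatin alone, Telmisartan gave 0 host genes higher and 0 lower in edgeR, as it did over all genes (0% and 0%). At an unadjusted p under 0.05 there were 2 of 21, SNHG16 (-0.63 ± 0.21) and SNHG3 (-0.67 ± 0.25), beside 10.3% of all genes. Both were lower in 3 of 3 libraries, where the libraries of 9.27% of all genes did not overlap. Both had an adjusted p above the threshold (0.323 and 0.376, edgeR). DESeq2 called 0 host genes, beside 13 higher and 42 lower of all 11113 genes. Of the 20 host genes other than SNHG19, 12 had approximate 95% intervals within a 2-fold difference in either direction, such as SNHG1 (-0.52 to 0.43) and SNHG12 (-0.32 to 0.58). The intervals of SNHG3, SNHG9, SNHG10, SNHG11, SNHG15, SNHG16, SNHG20 and SNHG25 reached beyond 2-fold, to -1.58 in SNHG10 and 1.45 in SNHG15. The result turned on the libraries that stood apart: without cisplatin replicate 1 and Telmisartan replicate 3, 8 host genes were higher and the median was 0.39, and with the mitochondrial ribosomal RNA share as a covariate 5 were lower. Over all genes, 1393 were higher and 1408 lower of 11260 without those libraries, and 135 and 198 of 11113 with the covariate.

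With Amphotericin B before cisplatin, 15 host genes rose over untreated cells and 1 fell, beside 17.6% and 23.3% of all genes. The median log2 fold change of the host genes was 1.33 and that of all genes -0.19. SNHG9, SNHG5 and DANCR had the largest increases. SNHG9 stood at 417, 278 and 329 CPM (2.78 ± 0.47, adjusted p = 0.000321). SNHG5, the host of SNORD50B, stood at 301, 289 and 304 CPM untreated and at 1660.4, 1432 and 2325 CPM with Amphotericin B (2.60 ± 0.42, adjusted p = 0.000232). DANCR stood at 112, 94.6 and 90.2 CPM (2.46 ± 0.46, adjusted p = 0.000614). In all 3 genes every Amphotericin B library lay above every untreated library. Between these groups the libraries of 58.7% of all genes did not overlap. With the mitochondrial ribosomal RNA share as a covariate all 3 calls ended, at 0.40 for SNHG9, 0.47 for SNHG5 and 0.19 for DANCR.

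SNHG15, SNHG12, SNHG19, SNHG6, SNHG11, GAS5, SNHG25, SNHG7, SNHG3 and SNHG16 also rose, by 0.55 (SNHG16) to 2.27 (SNHG15), and in SNHG16 the libraries of the groups overlapped. SNHG20 and SNHG10, counted among the 15, are given as a description, as with cisplatin. Leaving out SNHG10 and SNHG20, which reached the cutoff in 1 untreated library each, 13 of 19 rose, with a median log2 fold change of 1.30. SNHG12 was at 133, 130 and 189 CPM, and its call held under every alternative, from 1.12 to 2.18. EPB41L4A-AS1 fell to 164, 172 and 140 CPM (-0.76 ± 0.16, adjusted p = 0.00161) and was also called under every alternative, from -1.32 to -0.58. SNHG1, SNHG8, SNHG14, SNHG17 and ZFAS1 did not pass the threshold, with log2 fold changes from -0.12 to 0.58. Leaving out single libraries ended the calls of SNHG16 (each untreated library, Amphotericin B replicate 1 or 2, with values from 0.39 to 0.56), SNHG3 (0.79 without untreated replicate 1 and 0.61 without Amphotericin B replicate 3) and SNHG10 (1.39 without untreated replicate 3 and 1.48 without Amphotericin B replicate 1).

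The mitochondrial ribosomal RNA share was 12.3% to 14.8% with Amphotericin B and 1.79% to 2.20% untreated, so the share and the treatment cannot be told apart in these 6 libraries. With the share as a covariate over all 15 libraries, 2 host genes were higher (SNHG12 and SNHG19) and 3 lower, with a median of 0.19, so that the other 13 calls of higher levels ended. Scaling by library size only gave 13 higher and 4 lower, with a median of 0.76 for the host genes and -0.75 for all genes. Over all 11113 genes, 875 were higher and 1283 lower with the covariate, and 887 and 4804 with library size only.

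Against cisplatin alone, Amphotericin B gave 2 host genes higher and 2 lower, beside 4.21% and 9.01% of all genes. SNHG9 and SNHG5 rose by 1.66 ± 0.46 and 1.50 ± 0.41 (adjusted p = 0.0262 and 0.0251). SNHG5 stood at 1107, 444 and 368 CPM with cisplatin, all below the Amphotericin B libraries. SNHG16 and EPB41L4A-AS1 fell by 0.97 ± 0.21 and 0.64 ± 0.17 on the log2 scale (adjusted p = 0.00907 and 0.0187). SNHG16 stood at 280, 261 and 162 CPM with Amphotericin B, below all 3 cisplatin libraries, and EPB41L4A-AS1 stood at 261, 212 and 271 CPM with cisplatin, above all 3 Amphotericin B libraries. Between these groups the libraries of 24.6% of all genes did not overlap.

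None of these 4 calls held under every alternative. The number higher was 8 without cisplatin replicate 1 and 0 without cisplatin replicate 2 or 3 or Amphotericin B replicate 1 or 3. The number lower was 1 without cisplatin replicate 2 or 3 and 0 without Amphotericin B replicate 3. With the share as a covariate 0 were higher and 3 lower, and without cisplatin replicate 1 and Telmisartan replicate 3, 9 were higher and 2 lower. Over all genes, 158 were higher and 380 lower of 11113 with the covariate, and 2305 and 2577 of 11260 without those libraries. Without cisplatin replicate 1 alone, 1885 of 11332 genes were higher. Where leaving out 1 library left 0 host genes higher, 46 to 199 genes were higher.

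**Figure D4:**
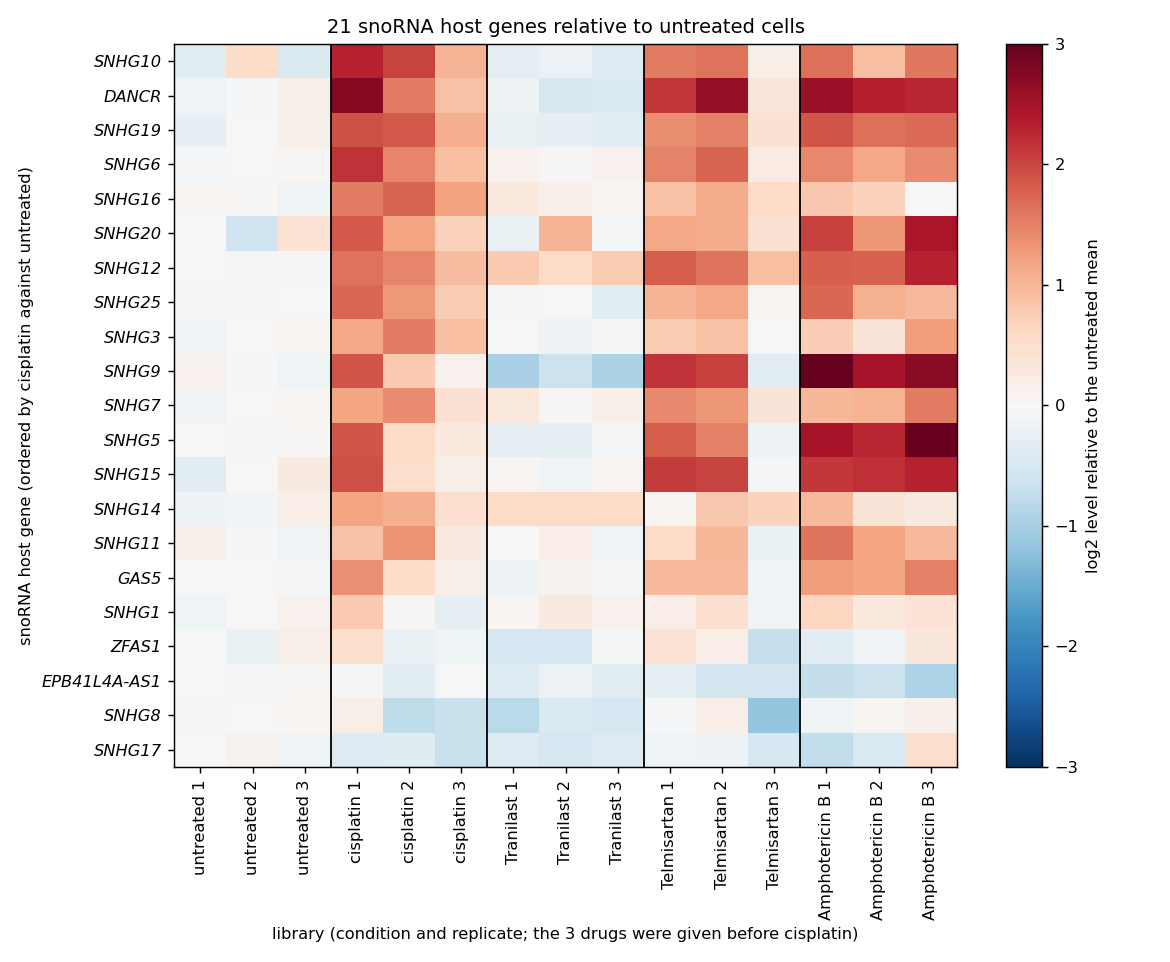
Log2 level of the 21 tested host genes (vertical axis) relative to the untreated mean in the 15 libraries (horizontal axis, condition and replicate), with red above and blue below the untreated mean and a pseudocount of 1 CPM. Telmisartan replicate 3 resembles the untreated columns (median -0.02), while the other Telmisartan columns have medians of 1.03 and 1.12, and EPB41L4A-AS1 is pale or blue throughout.

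The host genes were set beside other gene groups to see where they differed. Of all genes tested, 21.1% rose and 23.6% fell with cisplatin over untreated cells. Of 80 cytosolic ribosomal protein genes, 73 rose and 0 fell, and their median log2 fold change was 1.13. The number that rose was 41 with the mitochondrial ribosomal RNA share as a covariate, where 2676 of all 11113 genes rose. It was 48 at the least when 1 library was left out, and 1667 to 2347 of all genes rose in those fits. Of 95 protein-coding genes that hold a snoRNA and encode no ribosomal protein, 23 rose and 29 fell (median -0.03). Among 497 other long noncoding genes 123 rose and 70 fell (median 0.27). In both of these groups the share that rose was near that of all genes. With Amphotericin B against untreated cells the corresponding medians were 1.26, -0.18 and 0.20, with Telmisartan they were 0.96, -0.05 and 0.12, and with Tranilast -0.12, -0.02 and -0.05. Scaling by library size only turned the median of the other long noncoding genes to -0.09, -0.37 and -0.13 with cisplatin, Amphotericin B and Telmisartan. With the share as a covariate the ribosomal protein median was 0.41, -0.052 and -0.0052 in the same order. The groups are described by these counts and medians, and the difference between them was not tested.

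**Figure D5:**
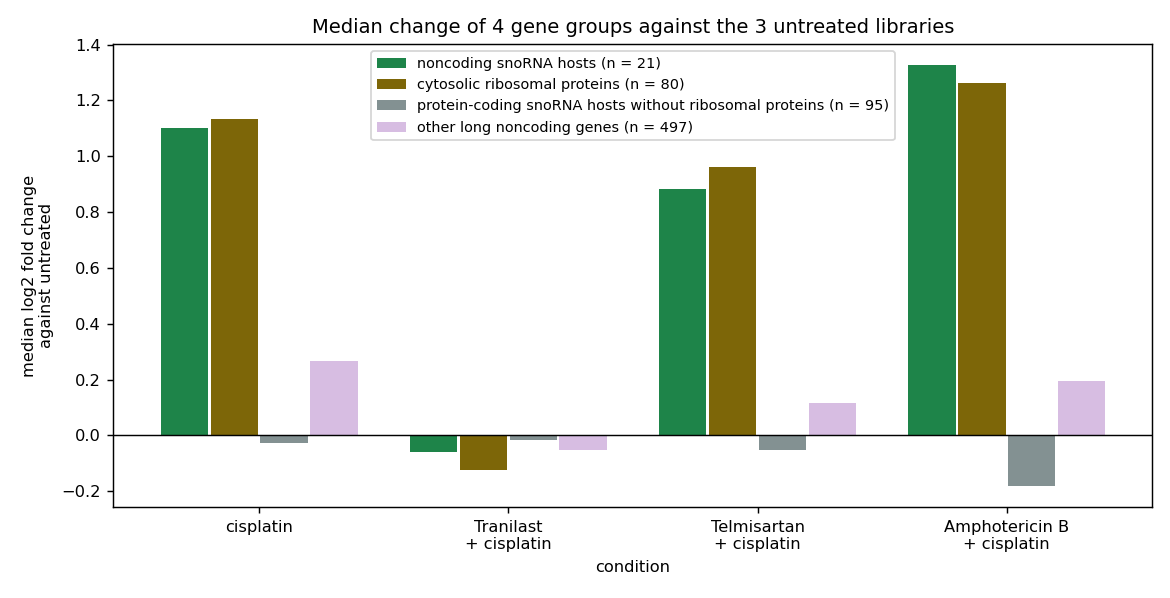
Median log2 fold change against untreated cells (vertical axis) of 4 gene groups (bars) in each treatment (horizontal axis), with the number of genes tested in each group in the legend. The 21 noncoding host genes and the 80 ribosomal protein genes have medians of 0.88 to 1.33 after cisplatin, Telmisartan and Amphotericin B, and from -0.12 to -0.06 after Tranilast. The medians of the other groups stay between -0.18 and 0.27.

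The proteins that bind or release snoRNAs were followed as lists. Of 8 core proteins of snoRNA particles, 5 rose and 1 fell with cisplatin over untreated cells, beside 21.1% and 23.6% of all genes (median 0.84). SNU13, which binds the box C/D fold, rose by 0.91 ± 0.20 (adjusted p = 0.00147) and FBL, the methyltransferase, by 0.88 ± 0.23 (adjusted p = 0.00574), and both calls held under every alternative tried. With Amphotericin B FBL rose by 1.27 ± 0.24 (adjusted p = 0.000581) and SNU13 by 0.84 ± 0.20 (adjusted p = 0.00307) over untreated cells, and both calls ended with the mitochondrial ribosomal RNA share as a covariate. That of SNU13 also ended with library size only. With Telmisartan FBL and SNU13 rose by 0.73 ± 0.23 and 0.65 ± 0.20 (adjusted p = 0.0253 and 0.0198). Leaving out any untreated library, or Telmisartan replicate 1 or 2, ended both calls, as did the covariate. With Tranilast the smallest adjusted p against untreated cells was 0.0992, of NOP58 (log2 fold change -0.43 ± 0.15), followed by NHP2 (-0.33 ± 0.33, adjusted p = 0.617). Between Amphotericin B and cisplatin alone NOP58 was also the nearest, at 0.35 ± 0.16 (adjusted p = 0.133), followed by FBL at 0.39 ± 0.23 (adjusted p = 0.265).

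Of 10 tested assembly factors, 1 rose and 2 fell with cisplatin, beside 21.1% and 23.6% of all genes (median -0.10), shares no larger than those of all genes. RUVBL1, an ATPase of the assembly complex, fell by 0.57 ± 0.21 on the log2 scale (adjusted p = 0.0307) and NUFIP1, the scaffold that brings core proteins together, rose by 0.63 ± 0.23 (adjusted p = 0.0317). Each of these calls was lost under 7 alternatives, among them leaving out cisplatin replicate 2 or 3. With Amphotericin B TGS1, which caps small RNAs, fell by 1.22 ± 0.24 (adjusted p = 0.000839) and PIH1D1, an assembly cofactor, rose by 0.86 ± 0.18 (adjusted p = 0.00152) against untreated cells, and both calls ended with the share as a covariate. That of PIH1D1 also ended with library size only. Against cisplatin alone TGS1 fell by 0.96 ± 0.24 (adjusted p = 0.0175) and RUVBL1 rose by 0.67 ± 0.21 (adjusted p = 0.041), calls that were lost under 6 and 9 alternatives. No assembly factor was called against untreated cells with Telmisartan, where RUVBL2 stood at 0.66 ± 0.26 and NOLC1 at 0.35 ± 0.16 (adjusted p = 0.0577 and 0.118), or with Tranilast, where RUVBL1 stood at -0.41 ± 0.20 and NUFIP1 at 0.31 ± 0.23 (adjusted p = 0.257 and 0.460).

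Of 7 genes that open intron lariats or trim snoRNA ends, 1 rose and 4 fell with cisplatin, beside 21.1% and 23.6% of all genes (median -0.69), and these counts were the same under every alternative. DBR1, the enzyme that debranches lariats, rose by 1.74 ± 0.23 (adjusted p = 2.35e-05), from 39.9 ± 2.87 CPM to 134 ± 48.6 CPM (SD, n = 3). PARN, a deadenylase that finishes box H/ACA ends, fell by 1.94 ± 0.24 (adjusted p = 1.37e-05), from 44.7 ± 2.57 CPM to 11.6 ± 2.87 CPM. With Telmisartan PARN fell by 1.31 ± 0.22 (adjusted p = 0.000412) and MTREX, the helicase of the nuclear exosome, by 0.69 ± 0.17 (adjusted p = 0.00671), and both held under every alternative. Between Amphotericin B and cisplatin alone PARN rose by 1.28 ± 0.25 (adjusted p = 0.00654) and DBR1 fell by 1.08 ± 0.23 on the log2 scale (adjusted p = 0.00848). The DBR1 call ended without cisplatin replicate 2 and with the mitochondrial ribosomal RNA share as a covariate, and both ended when the 6 libraries were fitted alone. Against untreated cells XRN1, an exonuclease, fell by 1.11 ± 0.31 with Amphotericin B (adjusted p = 0.00795), a call that ended with the share as a covariate. PARN fell there by 0.66 ± 0.22 (adjusted p = 0.025) and with Tranilast by 0.77 ± 0.21 (adjusted p = 0.0291), and each of these calls was lost under 7 alternatives.

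Of 14 tested genes of nonsense-mediated decay, the pathway known to remove many host RNAs, 4 rose and 1 fell with cisplatin, beside 21.1% and 23.6% of all genes (median 0.31). SMG6, the endonuclease of the pathway, fell by 1.93 ± 0.40 (adjusted p = 0.000961), from 25.6 ± 2.61 CPM to 7.05 ± 5.34 CPM, and this held under every alternative. MAGOH, part of the exon junction complex, rose by 0.82 ± 0.21 (adjusted p = 0.00499), a call that ended with library size only (adjusted p = 0.0526, edgeR). SMG6 also fell against untreated cells with Telmisartan, by 1.57 ± 0.38 (adjusted p = 0.00521), and with Tranilast, by 1.62 ± 0.36 (adjusted p = 0.0091). The Tranilast call ended without Tranilast replicate 1 (adjusted p = 0.0733). EIF4A3 rose with Telmisartan by 0.75 ± 0.27 (adjusted p = 0.0456), and leaving out any library of either group ended the call. With Amphotericin B SMG5 rose by 0.89 ± 0.26 (adjusted p = 0.0121) and MAGOH by 0.62 ± 0.21 (adjusted p = 0.0265). The SMG5 call was lost under 4 alternatives, among them leaving out untreated replicate 3 or Amphotericin B replicate 2, and the MAGOH call under 8. CASC3, another exon junction protein, fell against cisplatin alone by 0.70 ± 0.20 (adjusted p = 0.0299), lost under 6, and SMG8 stood at -0.88 ± 0.31 (adjusted p = 0.0629).

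Of 12 genes of mTORC1 and LARP1, which control the translation and stability of RNAs with a pyrimidine start, 2 rose and 3 fell with cisplatin, beside 21.1% and 23.6% of all genes (median -0.09), shares near those of all genes. MTOR fell by 1.88 ± 0.32 (adjusted p = 0.000204), from 29.2 ± 0.441 CPM to 8.10 ± 4.65 CPM, and its partner RPTOR fell by 2.75 ± 0.72 (adjusted p = 0.0054), from 16.6 ± 2.61 CPM to 2.70 ± 3.49 CPM. With Telmisartan MTOR fell by 1.32 ± 0.30 (adjusted p = 0.00386) and RPTOR by 2.50 ± 0.69 (adjusted p = 0.0119). These 4 calls held under every alternative, though the values of RPTOR ran from -5.35 to -2.16 with cisplatin. With Tranilast RPTOR fell by 2.20 ± 0.62 (adjusted p = 0.033), a call that ended when any library of either group was left out, and the log2 fold change of MTOR was -0.86 ± 0.28 (adjusted p = 0.0683). With Amphotericin B EIF4EBP1, a repressor of translation, fell by 0.80 ± 0.19 (adjusted p = 0.00264) and RPS6, a ribosomal protein and a target of the pathway, rose by 1.05 ± 0.26 (adjusted p = 0.00453) against untreated cells, and both calls ended with the share as a covariate. Against cisplatin alone MLST8 rose by 0.99 ± 0.21 (adjusted p = 0.00848), lost without cisplatin replicate 2 and with the 6 libraries alone, and TSC1 fell by 1.08 ± 0.30 (adjusted p = 0.0277), lost under 7 alternatives.

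Telmisartan against cisplatin alone gave 0 calls in any of these lists (edgeR), as over all genes. The genes with the smallest adjusted p were SNU13 (log2 fold change -0.26) and NOP56 (-0.20) among core proteins, RUVBL1 (0.39) and RPAP3 (0.24) among assembly factors, DBR1 (-0.90) and PARN (0.63) among lariat and end processing genes, SMG8 (-0.40) and UPF2 (-0.20) in decay, and MTOR (0.56) and MLST8 (0.33) in the mTORC1 list. Their adjusted p ran from 0.294 (DBR1) to 0.834 (NOP56). For Tranilast against cisplatin alone the values are a description. There the log2 fold changes were -1.13 for NOP56, -0.73 for SNU13, 0.35 for RPAP3, -0.54 for RUVBL2, -1.10 for DBR1 and 1.17 for PARN. In the other lists they were -0.96 for MAGOH, -0.78 for SMG8, -1.02 for RPS6 and 1.02 for MTOR. Against untreated cells DBR1 stood at 0.65 ± 0.23 and SMG9, a decay factor, at 0.63 ± 0.22 with Tranilast, and neither passed the threshold (adjusted p = 0.0899 and 0.082).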

How the data were processed

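RNA of 15 IGROV-CP20 libraries (100 ng each) was sequenced by QuantSeq with 75 bp reads. The authors deposited raw counts of reads per Ensembl gene, 1 table per library. The submitters' processing notes name hg19, STAR 2.3.0 and HTSeq. The annotation and strand setting are not given in the sources used here, so reads of overlapping genes may be mixed. Symbols and positions came from GENCODE 29 on GRCh38, matched by identifier (45776 of 47634), and start sites from RefSeq on GRCh38.p14. No position was taken from the reads.

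Counts were fitted with edgeR 4.0.16 (quasi-likelihood F test, TMM, filterByExpr with a CPM cutoff of 4.26, all 15 libraries, R 4.3.3), with Benjamini-Hochberg adjustment over 11113 genes and a threshold of 0.05. Printed levels are TMM-scaled CPM. The scripts were checked on simulated counts. The alternatives were DESeq2 1.42.0, other scaling and filters, the 6 libraries alone, a replicate block, the mitochondrial ribosomal RNA share as a covariate and leaving out each library. Leaving out both libraries that stood apart was chosen after seeing the data.

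Every host gene tested was named. SNHG19, GAS5 and, in each comparison, the 3 largest increases and decreases past the threshold were given in full, as were the 2 genes of each list with the smallest adjusted p against untreated cells or cisplatin alone. The host genes and lists were chosen with earlier results of these data known. The labels call the replicates biological without saying how they were separated, so p-values measure the spread between these libraries, which may be partly technical. With 1510620 to 3517041 reads per library, genes of a few CPM rest on few reads.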

Additional observations from a re-analysis of the deposited data

How the results depend on the processing

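Counts are of host genes higher and lower among all 21 tested, SNHG19 included, which in edgeR with all libraries were 14 and 0 for cisplatin against untreated cells, 0 and 12 for Tranilast against cisplatin and 1 and 14 for Tranilast against Amphotericin B. Scaling by library size only gave 9 and 2 for cisplatin against untreated cells, 1 and 8 for Tranilast against cisplatin, 1 and 0 for Tranilast and 13 and 4 for Amphotericin B against untreated cells, and 2 and 11 for Tranilast against Amphotericin B. It moved the median of all genes to -0.36, 0.46, 0.08, -0.75 and 0.81 in these comparisons. The mitochondrial ribosomal RNA share as a covariate gave 10 and 2 (cisplatin against untreated), 1 and 8 (Tranilast against cisplatin), 0 and 5 (Telmisartan against cisplatin), 0 and 3 (Amphotericin B against cisplatin), 2 and 2 (Tranilast against untreated), 3 and 3 (Telmisartan against untreated), 2 and 3 (Amphotericin B against untreated) and 0 and 1 (Tranilast against Amphotericin B). Without cisplatin replicate 1 and Telmisartan replicate 3 the counts were 15 and 2, 0 and 13, 8 and 0, 9 and 2, 2 and 2, 17 and 1, 17 and 1, and 1 and 15 in the same order. The 6 libraries alone gave 1 and 0 for Amphotericin B against cisplatin, 2 and 5 for Tranilast against untreated cells and 11 and 0 for Telmisartan against untreated cells. Over all genes they gave 23 and 66 of 9199, 1869 and 2119 of 10965, and 1565 and 1575 of 10801 in the same order. No filter gave 1 and 1 for Tranilast against untreated cells, beside 354 and 797 of 24733 genes. The 1 lower gene with Telmisartan was 0 with RLE factors, with a CPM above 1 in 3 libraries, with no filter and with the replicate block, and the 1 higher gene of Tranilast against Amphotericin B was 0 with RLE factors and DESeq2. Calls over all genes moved as well, as given above for several comparisons. For Tranilast against cisplatin they were 1169 higher and 1293 lower of 11113 in the main fit, 2582 and 397 with library size only and 1383 and 1528 with the covariate. Without the libraries apart they were 2039 and 2048 of 11260. The cause of these changes was not tested.

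Leaving out 1 library at a time gave 10 to 16 higher and 0 to 1 lower for cisplatin against untreated cells, 8 to 14 lower for Tranilast against cisplatin, 0 to 8 higher and 0 to 2 lower for Amphotericin B against cisplatin, 6 to 14 higher and 0 to 1 lower for Telmisartan and 13 to 15 higher and 1 lower for Amphotericin B against untreated cells, and 0 to 1 higher and 13 to 14 lower for Tranilast against Amphotericin B. In these fits, of 11299 to 11429 genes, 1667 to 2347 were higher and 1914 to 2781 lower for cisplatin against untreated cells. For Tranilast against cisplatin 569 to 1511 were lower. For Amphotericin B against cisplatin 46 to 1885 were higher and 163 to 1949 lower. Against untreated cells they were 779 to 1874 and 1187 to 2308 with Telmisartan, and 1501 to 1848 and 1928 to 2336 with Amphotericin B. For Tranilast against Amphotericin B they were 1254 to 1865 and 1299 to 1628.

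Directions turned as follows. With the covariate, SNHG5 was at -0.083 for cisplatin against untreated cells and SNHG8 at 0.45 for Tranilast against cisplatin. It put ZFAS1 at -0.65, SNHG5 at -0.19 and SNHG9 at -0.076 for Telmisartan against untreated cells. It put SNHG15 at -0.081, GAS5 at -0.040, SNHG6 at -0.20, SNHG8 at -1.26, MAGOH at -0.18 and RPS6 at -0.087 for Amphotericin B against untreated cells, and SNHG15 at 0.046 and SNHG6 at 0.28 for Tranilast against Amphotericin B. With library size only, SNHG1 was at 0.43 for Tranilast against cisplatin, SNHG16 at -0.017 and SNHG8 at -0.52 for Amphotericin B against untreated cells, and SNHG14 at 0.66 for Tranilast against Amphotericin B. Without the libraries apart, GAS5 was at 0.60 and SNHG1 at 0.46 for Telmisartan against cisplatin.

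For the other gene groups, cisplatin against untreated cells, library size only gave 3 core proteins, 0 assembly factors, 0 decay genes, 1 gene of the mTORC1 list, 12 protein-coding hosts and 81 other long noncoding genes higher, and 5 of the mTORC1 list lower. The covariate gave 3 core proteins and 2 assembly factors higher and 1 assembly factor lower, and 41 ribosomal proteins higher and 1 lower. Without the libraries apart 3 assembly factors and 7 decay genes were higher, and 2 decay genes, 6 of the mTORC1 list and 1 ribosomal protein lower. Assembly factors higher and lower were 3 and 0 with RLE factors and 0 and 1 with no filter. The number higher was 3 with DESeq2, and the number lower was 1 with a CPM above 1 in 3 libraries, 1 with the replicate block and 0 with the 6 libraries. Leaving out 1 library gave 3 to 5 core proteins higher and 1 lower, 0 to 2 assembly factors higher and 0 to 2 lower, 1 lariat gene higher and 4 lower, 2 to 5 decay genes higher and 1 to 2 lower, and 1 to 2 of the mTORC1 list higher and 2 to 4 lower. It gave 48 to 76 ribosomal proteins higher and 0 lower, 16 to 21 protein-coding hosts higher and 22 to 29 lower, and 85 to 130 other long noncoding genes higher and 38 to 75 lower.

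Over the 8 comparisons the correlations of the deviations of same-numbered replicates ran from -0.235 to 0.631. They were 0.0035, 0.042 and 0.022 for cisplatin with untreated and 0.31, -0.17 and 0.63 for Telmisartan with cisplatin, and in no comparison were all 3 over 0.1, so the numbers were not taken to pair the samples. Every library correlated best with its own number only for Telmisartan with untreated (0.096, 0.035 and 0.094). With the replicate block, host genes higher and lower were 14 and 0 (cisplatin), 11 and 0 (Telmisartan) and 15 and 1 (Amphotericin B) against untreated cells, and 0 and 0 for Telmisartan against cisplatin. Over all 11113 genes the counts were 2307 and 2674, 1441 and 1863, 1953 and 2616, and 0 and 0 in the same order.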

Other observations

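Of the snoRNAs inside these host genes, 2 had an identifier in the count tables. SNORD87, inside SNHG6, had 0 reads in every library, and SNORA71B, inside SNHG17, had 0 to 4 reads per library. SNHG18 and SNHG27 had 1 read each over the 15 libraries, SNHG22 had 11, SNHG21 had 31 and SNHG26 had 40.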
